A study of Mus musculus with 20 samples.

Results

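Transcripts of 8 genes for ion pumps and exchangers were followed in mouse cortical neurons, with and without the circular RNA ciRS-7, under normal supply and under oxygen and glucose deprivation (OGD). The genes were Atp1b1 and Atp1b2 (sodium/potassium pump), Atp2a2, Atp2b1 and Atp2b2 (calcium pumps), Slc8a1 and Slc8a2 (sodium/calcium exchange) and Slc12a5 (potassium/chloride cotransport). They were chosen by symbol, with earlier results of these data known. All 8 were found among the 14700 genes listed in any of the 4 deposited tables. Neurons came from cortices of E15 embryos and were grown for 7 days as primary cultures, which can hold other cell types. They then spent 12 h either in normoxia (N: 5% CO2, 37 °C, glucose at 25 mM and pyruvate at 0.2 mM) or under OGD (1% oxygen, 5% CO2, 37 °C, the same base medium with neither addition). Cultures were wild type (WT) or knockout (KO) for ciRS-7, whose gene is Cdr1as, and the labels name the strain C57BL/6N-Cdr1asem1Nikr for both genotypes. The design thus had 4 groups (N_WT and OGD_WT, N_KO and OGD_KO) with 5 total RNA libraries each. The labels do not say whether a culture was 1 embryo or a pool.

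Neurons spend much of their ATP on moving ions against their gradients. The sodium/potassium pump is an alpha subunit that splits ATP with a beta subunit that brings it to the membrane. Calcium leaves the cytosol through pumps of the endoplasmic reticulum (SERCA) and the plasma membrane (PMCA) and through sodium/calcium exchangers (NCX), which use the sodium gradient. KCC2, the product of Slc12a5, exports chloride from mature neurons and thereby sets the polarity of the GABA response. When ATP runs short these gradients decline, and an NCX can then run in reverse and load the cell with calcium.

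The libraries held between 7071603 and 16658617 recovered reads in the listed genes, and a library had from 85 reads (Slc8a2) to 10673 reads (Atp2a2) for one of the 8 genes. Cdr1as had 700 to 1365 reads in N_WT and 545 to 1912 in OGD_WT, against 5 to 16 in N_KO and 2 to 14 in OGD_KO, so every library matched its genotype label on this gene. The mitochondrial ribosomal RNA mt-Rnr2 took 10.1% to 16.5% of the reads in normoxia and 13.8% to 32.0% under OGD. In every group, replicates 1 and 3 lay close to the mean of the other 4 libraries, with an SD across 2731 genes of 0.0719 to 0.128 on the log2 scale, while replicates 2, 4 and 5 had an SD of 0.333 to 0.585. Results are therefore also given for replicates 2, 4 and 5 alone, a choice made after seeing the data. Levels are log2 CPM, which are read counts scaled per library, on a log2 scale set separately for each deposited table. They are given after a clipping of the extreme values in the deposited tables was undone. The scaling did not follow the recovered reads of a library alone. In the KO table of OGD against normoxia, a read stood for 0.168 CPM in OGD_KO replicate 5 (7496145 reads). In N_KO replicate 3 (7582101 reads) a read stood for 0.119 CPM. A gene was called at a limma adjusted p under 0.05, and these p-values measure the spread between libraries, taken as independent. With replicates 1 and 3 this close to the mean, that spread may be too small. The p-values and intervals may then be too small as well, which was not tested. Between genotypes the p-values may instead be too large, which was not tested either. There 1.81% of all genes in normoxia and 1.78% under OGD had an unadjusted limma p under 0.05. Where the OGD changes of the genotypes were compared, 0.759% did. Chance alone gives a share of 0.05.

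The 8 transcripts covered a wide range of levels. Per kilobase of exon on a scale shared by all 20 libraries, Atp1b1 stood highest in N_WT at 128 ± 16.2 CPM per kb (SD, n = 5), in the 99.1th percentile of 13310 genes. Atp2a2 followed at 85.3 ± 13.4, and the 2 ranges did not overlap. Then came Atp2b1 at 21.6 ± 1.24, Atp2b2 at 19.5 ± 4.44 and Atp1b2 at 16.3 ± 5.32 CPM per kb, whose ranges overlapped. Slc8a1 at 10 ± 2.12, Slc8a2 at 8.12 ± 2.77 and Slc12a5 at 7.83 ± 0.596 CPM per kb formed the lowest tier, again with overlapping ranges. The same order held for the mean levels in N_KO down to Slc8a1. There Slc12a5 stood at 8.72 ± 1.61 and Slc8a2 at 8.05 ± 1.08 CPM per kb (n = 5), which did not differ beyond their spread. Under OGD, Atp1b2 at 14.1 ± 3.47 CPM per kb in OGD_WT and 13.7 ± 0.826 in OGD_KO stood above Atp2b2, which was at 8.71 ± 2.13 and 8.68 ± 1.10. These levels divide by the summed length of all annotated exons, so a gene with unused exons reads too low.

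**Figure D1:**
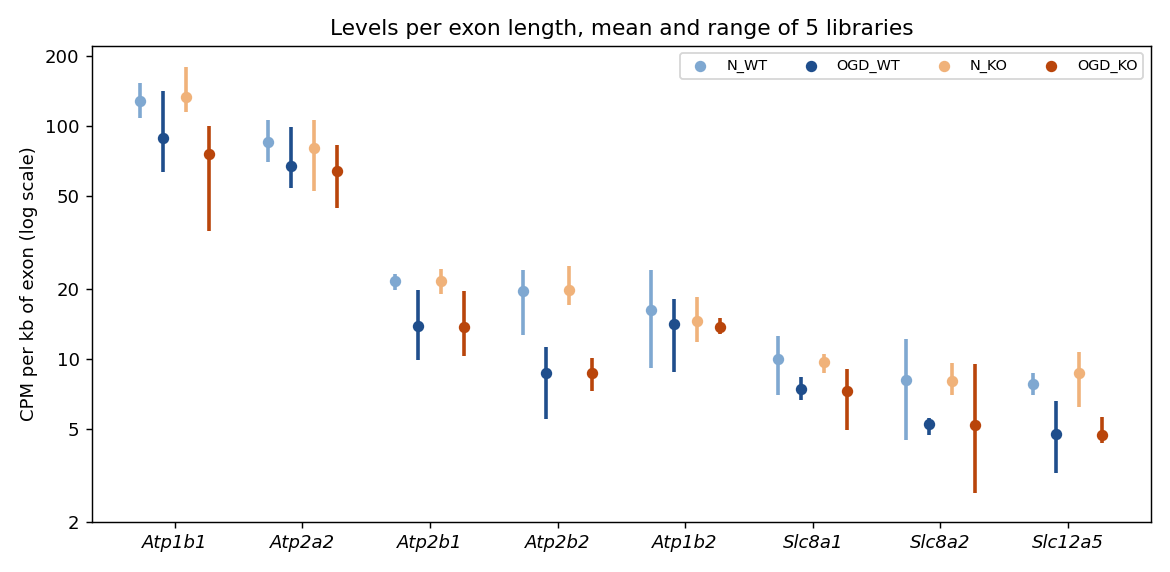
Level of each transcript in CPM per kb of exon (log axis), with the mean (point) and the range (line) of 5 libraries in each group. Atp1b1 and Atp2a2 stand above the other 6 genes in all 4 groups, and Atp2b2 shows the widest separation between normoxia and OGD in both genotypes.

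Deprivation lowered 6 of the 8 transcripts in WT neurons and the same 6 in KO neurons: Atp1b1, Atp2b1, Atp2b2, Slc8a1, Slc8a2 and Slc12a5. None rose. The share of all genes called lower was 22.8% in WT and 19.9% in KO, and the share called in either direction was 44.3% and 40.9%. Since the 8 were chosen with earlier results known, these shares describe and do not test the set. All 8 fitted changes were below 0 in both genotypes, with a median log2 change of -0.58 in WT and -0.70 in KO, beside -0.03 and 0.00 over all genes. Groups did not overlap for Atp2b1, Atp2b2 and Slc12a5 in WT, and for Atp1b1, Atp2b2 and Slc12a5 in KO, while 13.1% and 12.4% of all genes were lower without overlap. With replicates 2, 4 and 5 alone, 1 of the 8 was called in WT (Atp2b2) and 2 in KO (Atp1b1 and Atp2b2), and the fitted changes of the 6 genes lay between -1.17 and -0.47 in WT and between -1.20 and -0.42 in KO. Since these are bulk libraries, fewer cells of a type and less RNA per cell cannot be told apart.

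**Figure D2:**
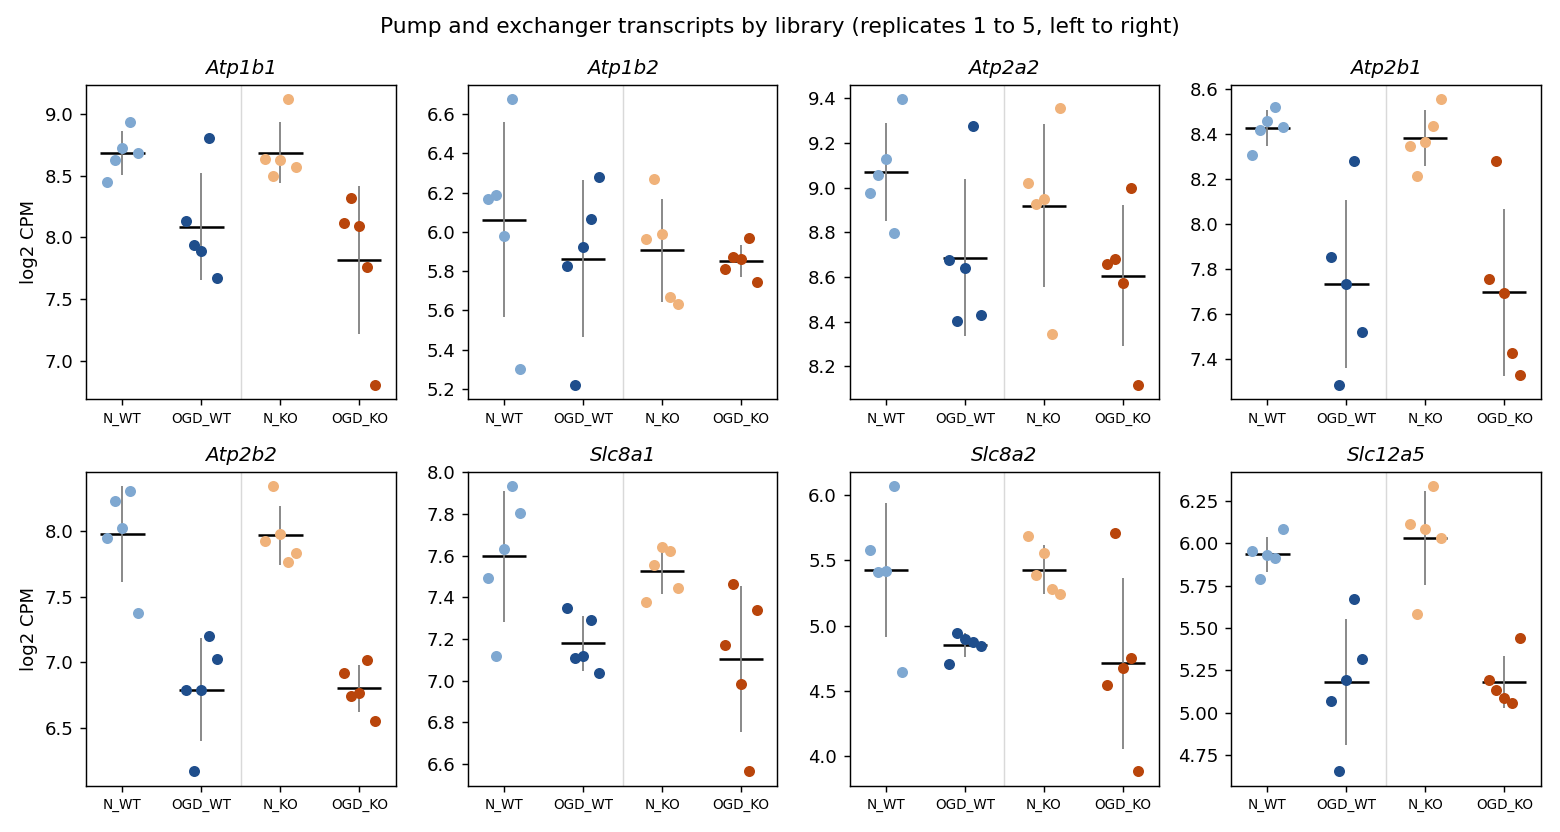
Level of each of the 8 transcripts in log2 CPM, by group, with 1 point per library (replicates 1 to 5 from left to right), the mean (bar) and 1 SD on each side (line). WT and KO values come from separately scaled tables, so normoxia and OGD are compared within a genotype. The OGD libraries lie below all normoxic libraries for Atp2b2 and Slc12a5 in both genotypes, and the points of Atp1b2 and Atp2a2 overlap.

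Atp1b1 encodes the beta 1 subunit, the main beta subunit of neuronal sodium/potassium pumps. In N_WT its 5 libraries, replicates 1 to 5, were at 8.45, 8.63, 8.73, 8.93 and 8.68 log2 CPM, and in OGD_WT at 8.14, 7.94, 7.89, 8.81 and 7.67. All OGD libraries but replicate 4 lay below every normoxic one, and replicate 4 sat inside the normoxic range. The log2 fold change was -0.60 (SE 0.18, limma adjusted p = 0.0107), or 33.9% lower. In KO cultures the normoxic libraries were at 8.63, 8.50, 8.63, 9.12 and 8.57 log2 CPM, and the OGD libraries at 8.12, 8.32, 8.09, 7.76 and 6.81. Here the groups were separate, with OGD_KO replicate 5 far below the rest. That library also had the highest share of mt-Rnr2, 32.0%. The fitted change was -0.87 (SE 0.23, limma adjusted p = 0.00561), or 45.3% lower. Without OGD_KO replicate 5 it was -0.62, and Atp1b1 was called in all 10 KO fits with 1 library left out. In KO, 6 of the 8 genes were called without culture 5, beside 5923 of all 14375 genes, an alternative added after seeing the data. Of the exon bases of Atp1b1, 18.7% are also exon of Nme7 on the opposite strand. Whether the counting used strand is not given in the sources used here, so reads in that stretch are uncertain.

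Atp1b2 encodes the beta 2 subunit, first known as an adhesion molecule on glia and found in neurons as well. Its normoxic WT libraries were at 6.17, 6.19, 5.98, 6.68 and 5.30 log2 CPM and its OGD_WT libraries at 5.82, 5.22, 5.92, 6.07 and 6.28. The groups overlapped over most of their range. Its log2 fold change was -0.20 (95% interval -0.64 to 0.24, limma adjusted p = 0.470). KO values ran from 5.63 to 6.27 in normoxia and from 5.75 to 5.97 under OGD, with a change of -0.05 (95% interval -0.36 to 0.25, limma adjusted p = 0.793). Atp1b2 was thus not called in either genotype.

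Atp2a2 encodes SERCA2, which pumps calcium into the endoplasmic reticulum. In WT the normoxic libraries were at 8.97, 9.06, 9.13, 8.79 and 9.39 log2 CPM and the OGD libraries at 8.68, 8.41, 8.64, 9.27 and 8.43. Again 4 OGD libraries lay below all normoxic ones and replicate 4 was high. The change of -0.38 (95% interval -0.74 to -0.02) did not pass over all genes (limma adjusted p = 0.0765). Without OGD_WT replicate 4 the change was -0.53 and was called (limma adjusted p = 0.00705). Of the 10 WT fits with 1 library left out, only this 1 gave a call, and the limma adjusted p ran up to 0.17. In KO, normoxic values ran from 8.34 to 9.36 and OGD values from 8.12 to 9.0, and the change was -0.31 (95% interval -0.72 to 0.10, limma adjusted p = 0.214). There 0 of 10 fits with 1 library left out gave a call, with limma adjusted p up to 0.431.

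Atp2b1 and Atp2b2 encode PMCA1, the widely expressed calcium pump of the plasma membrane, and PMCA2, a fast form with high levels in neurons. For Atp2b1, N_WT libraries were at 8.31, 8.42, 8.46, 8.52 and 8.43 log2 CPM and OGD_WT libraries at 7.85, 7.29, 7.74, 8.28 and 7.52. The normoxic values were tight, with an SD of 0.08 against 0.37 under OGD, and the groups did not overlap. The log2 fold change was -0.69 (SE 0.17, limma adjusted p = 0.00190), or 38.1% lower. KO libraries were at 8.35, 8.21, 8.36, 8.44 and 8.55 in normoxia and at 7.76, 8.28, 7.69, 7.43 and 7.33 under OGD. OGD_KO replicate 2 lay above the lowest normoxic library. The fitted change was -0.69 (SE 0.17, limma adjusted p = 0.00413), close to that in WT.

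Of the 8 transcripts, Atp2b2 had the change farthest from 0 in both genotypes. In N_WT it stood at 7.94, 8.23, 8.02, 8.30 and 7.38 log2 CPM and in OGD_WT at 6.79, 6.17, 6.79, 7.20 and 7.02. In N_KO it stood at 7.92, 8.34, 7.98, 7.76 and 7.83, and in OGD_KO at 6.92, 6.75, 6.76, 7.02 and 6.56. No OGD library reached a normoxic library of its genotype. The log2 fold change was -1.18 in WT (SE 0.19, limma adjusted p = 4.75e-05), or 55.9% lower. In KO it was -1.16 (SE 0.15, limma adjusted p = 1.14e-05), or 55.3% lower. Atp2b2 was called in all 19 alternative analyses in WT and all 20 in KO. Whether it fell by more than the other 7 transcripts was not tested.

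Slc8a1 and Slc8a2 encode the exchangers NCX1 and NCX2, of which NCX2 is largely a brain form. Slc8a1 libraries were at 7.49, 7.12, 7.63, 7.93 and 7.80 log2 CPM in N_WT and at 7.35, 7.11, 7.12, 7.29 and 7.04 in OGD_WT. The ranges overlapped through the low normoxic replicate 2. The change was -0.42 (SE 0.16, limma adjusted p = 0.0365) in WT and -0.42 (SE 0.17, limma adjusted p = 0.0488) in KO, both near the threshold. With the culture number as a block, the adjusted p (limma) in KO was 0.0833. In KO, normoxic values ran from 7.38 to 7.64 and OGD values from 6.56 to 7.46. Over the alternatives Slc8a1 was called in 10 of 19 in WT and in 9 of 20 in KO, the fewest of the 6 genes. The call was lost without any one of OGD_WT replicates 2, 3 and 5 or N_WT replicates 1, 3, 4 and 5, with limma adjusted p up to 0.0955, and in KO without OGD_KO replicates 1, 3 or 4 or any N_KO replicate, with limma adjusted p up to 0.119.

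Slc8a2 was at 5.58, 5.41, 5.42, 6.07 and 4.64 log2 CPM in N_WT and at 4.70, 4.94, 4.90, 4.87 and 4.85 in OGD_WT. The OGD libraries were tight, and the normoxic replicate 5 was below all of them while the other 4 were above. The log2 fold change was -0.57 (SE 0.19, limma adjusted p = 0.0179), or 32.7% lower, and without N_WT replicate 4, the highest library, the limma adjusted p was 0.0691. KO libraries were at 5.69, 5.39, 5.56, 5.28 and 5.24 in normoxia and at 4.54, 5.71, 4.67, 4.75 and 3.88 under OGD. There OGD_KO replicate 2 was above all normoxic libraries and the other 4 were below all of them. The fitted change was -0.72 (SE 0.23, limma adjusted p = 0.0186), or 39.2% lower.

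Slc12a5 fell with little spread among the normoxic WT libraries, which were at 5.96, 5.79, 5.93, 5.92 and 6.08 log2 CPM. The OGD_WT libraries were at 5.07, 4.65, 5.20, 5.67 and 5.32, all of them lower. In N_KO the values were 6.11, 5.58, 6.09, 6.34 and 6.03, and in OGD_KO 5.19, 5.13, 5.09, 5.06 and 5.44. Both genotypes thus showed separate groups. The log2 fold change was -0.75 in WT (SE 0.16, limma adjusted p = 0.000816), or 40.7% lower, and -0.85 in KO (SE 0.15, limma adjusted p = 0.000238), or 44.5% lower. An exact permutation test of 5 against 5 libraries gave p = 0.00794 in each genotype, two-sided and unadjusted. This is the smallest p the design allows, and separate groups always give it, so it adds nothing to the separation. The same test gave the same p for Atp2b2 in both genotypes, Atp2b1 in WT and Atp1b1 in KO. In all, 32 such tests were made over the 8 genes and 4 comparisons.

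The next question was whether loss of ciRS-7 altered these transcripts. Between genotypes 0 of the 8 were called in normoxia and 0 under OGD by limma, and 0 of the 8 had an unadjusted p under 0.05 in either. Of all genes, 0.0353% were called in normoxia and 0.0282% under OGD, with 256 and 253 genes (1.81% and 1.78%) at an unadjusted p under 0.05. In normoxia the log2 difference of KO from WT ran from -0.12 (Atp1b2, 95% interval -0.53 to 0.29) to 0.13 (Slc12a5, 95% interval -0.16 to 0.43). Under OGD it ran from -0.25 (Atp1b1, 95% interval -0.80 to 0.29) to 0.02 (Atp2b2, 95% interval -0.36 to 0.40). The value of Atp1b1 was -0.00041 without OGD_KO replicate 5 and -0.07 without OGD_WT replicate 4. The narrowest interval was that of Atp2b1 in normoxia, -0.26 to 0.24. Changes of the size seen under OGD for Atp2b2 lay outside its intervals between genotypes. This did not hold for every gene. The WT changes of Atp1b1 (-0.60), Atp1b2 (-0.20), Atp2a2 (-0.38) and Slc8a2 (-0.57) lay inside their intervals between genotypes under OGD. Those intervals were -0.80 to 0.29, -0.36 to 0.37, -0.48 to 0.35 and -0.61 to 0.36. Differences inside the intervals were not detectable with this spread.

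**Figure D3:**
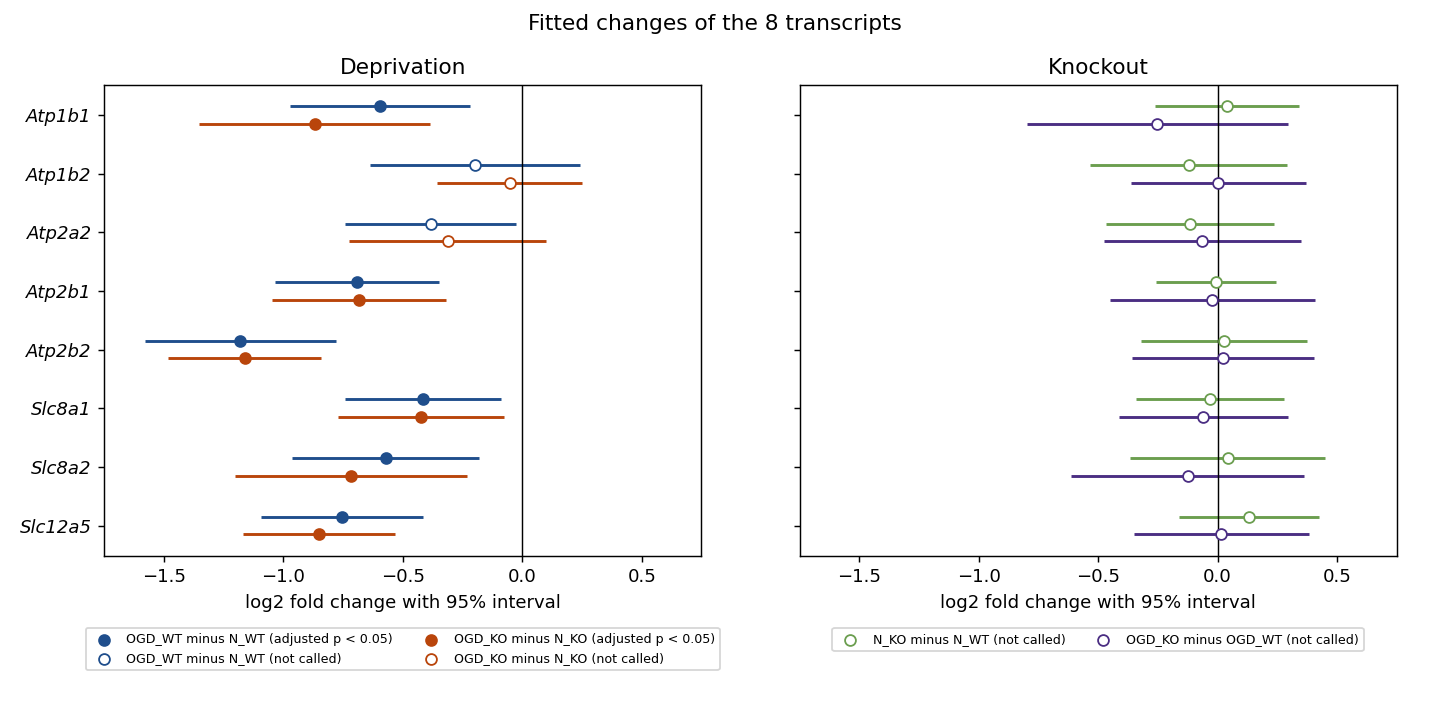
Fitted log2 fold change of each transcript with its 95% interval, for OGD against normoxia in each genotype (left) and for KO against WT in each condition (right). Filled points were called at a limma adjusted p under 0.05, and open points were not. The 6 called genes lie between -1.18 and -0.42 on the left in both genotypes, and all intervals on the right include 0.

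Normoxic and OGD libraries of one number carry the same culture label and batch, so the change was read number by number. In their deviations from the group means, same-number libraries correlated at r between -0.74 and 0.08. Each OGD library correlated best with a normoxic library of another number, so the pairing rests on the labels alone. Atp2b2 changed by -1.15, -2.06, -1.23, -1.11 and -0.35 on the log2 scale in WT cultures 1 to 5 and by -1.0, -1.59, -1.21, -0.74 and -1.27 in KO cultures. Slc12a5 changed by -0.89, -1.14, -0.74, -0.24 and -0.76 in WT and by -0.92, -0.45, -1.0, -1.28 and -0.60 in KO. Every culture was thus lower under OGD for both genes, as for Atp1b1 and Slc8a1. The change of Slc8a1 was only -0.008 in WT culture 2 and -0.09 in KO culture 2. Atp2b1 was lower in 5 WT and 4 KO cultures, Slc8a2 and Atp2a2 in 4 and 4, and Atp1b2 in 4 and 3. The spread among cultures was widest for Atp1b2 in WT, with an SD of 0.74. The difference between the genotypes' changes (KO minus WT) lay between -0.27 for Atp1b1 (95% interval -0.88 to 0.34) and 0.15 for Atp1b2 (95% interval -0.47 to 0.76). For Atp1b1 it was -0.05 without KO culture 5 and -0.16 without WT culture 4. None of the 8 was called in this test by limma, and 0% of 14097 genes were (107, or 0.759%, at an unadjusted p under 0.05).

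ciRS-7 binds the microRNA miR-7, so the letters that pair with the miR-7 seed were looked up in the 8 transcripts. Both mouse forms share the seed, which is in capitals (bases 2 to 8, RefSeq, GRCm38.p6).
mmu-miR-7a-5p: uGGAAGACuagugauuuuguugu
mmu-miR-7b-5p: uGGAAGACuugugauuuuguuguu
The search covered the longest 3′ UTR among the protein-coding transcripts of each gene. The annotation was GENCODE vM21, which is built on GRCm38, the assembly also called mm10. None of the 8 held the 8-base site GTCTTCCA, which 4.39% of 11835 measured genes hold. A 7-base site, GTCTTCC or TCTTCCA, occurred in 4 of the 8 and in 27.7% of the genes. The windows below show these sites (in capitals) for Atp2b2 and Slc12a5, the genes whose groups were separate under OGD in both genotypes, and for Slc8a1 and Atp1b2, each named with the first base of the site in the 3′ UTR.
Atp2b2, base 1513: aaaccaaattGTCTTCCtgtagttaca
Atp2b2, base 2645: actctcacacTCTTCCAtacacacaca
Slc12a5, base 1557: gactgggcatTCTTCCAggcagtagcc
Slc8a1, base 9446: caactattctTCTTCCAaggatgacct
Slc8a1, base 10616: ctaacccaccTCTTCCAgccaagcaaa
Atp1b2, base 185: atttccaacaTCTTCCAaccttagctt
Atp1b2, base 1063: ggtcactaagGTCTTCCctttctgcat
Atp1b2, base 1389: gggtatccagGTCTTCCtgccccttca
Atp1b2 has 3 of them within 1515 bases, while the 3′ UTR of Slc8a1 is 15589 bases long and has 2. In normoxia, the log2 difference of KO from WT was -0.12 for Atp1b2, 0.03 for Atp2b2, -0.03 for Slc8a1 and 0.13 for Slc12a5. For the 4 genes without a site it was 0.04 for Atp1b1 and Slc8a2, -0.11 for Atp2a2 and -0.01 for Atp2b1. None was called in either set. A match is a description of the letters and does not show that a site is used.

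The genes lie on 8 chromosomes of GRCm38: Atp1b1 on chromosome 1 (164437109 to 164458355, minus strand), Slc12a5 on 2 (164960802 to 164999731, plus), Atp2a2 on 5 (122453513 to 122502225, minus) and Atp2b2 on 6 (113743831 to 114042613, minus). Slc8a2 is on 7 (16129826 to 16161063, plus), Atp2b1 on 10 (98914406 to 99026143, plus), Atp1b2 on 11 (69599736 to 69605942, minus) and Slc8a1 on 17 (81373105 to 81738377, minus). All 8 are annotated as protein coding, and values are totals per gene symbol, so splice forms were not separated.

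Among 79 related transport genes listed for comparison, 53 were in the WT table of OGD against normoxia and 52 in the KO table. In WT 6 were called higher, 11 lower and 36 not, with a median log2 change of -0.08, and in KO 6, 11 and 35, with a median of -0.17. Of all genes, 21.6% were called higher in WT and 21.0% in KO. None was called between genotypes by limma. Atp1b3, a further beta subunit of the sodium/potassium pump, was at -0.26 in WT, not called, and fell by 0.41 in KO (limma adjusted p = 0.0311). Of the pump's small partners, Fxyd7 had log2 changes of -0.70 and -0.97 (WT and KO, both called lower), and Nkain3 rose by 0.57 and 0.51.

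The plasma membrane pumps and the exchangers were mixed as well. Atp2b3 (PMCA3) fell by 0.64 and 0.60 in WT and KO (limma adjusted p = 0.00196 and 0.00107), whereas Atp2b4 (PMCA4) was at -0.19 and -0.21 and Slc8a3 (NCX3) at -0.30 and -0.49, none of them called. Slc24a2, an exchanger of sodium for calcium and potassium, had the largest fall of the related genes outside the paralogue families, with a log2 change of -1.43 (SE 0.18) in WT and -1.58 (SE 0.15) in KO. Its relative Slc24a4 rose by 0.79 and 0.59. Among bicarbonate transporters, Slc4a8 fell by 1.04 and 1.01 and Slc4a4 rose by 0.88 and 0.77.

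Members of the cation-chloride family moved in both directions. While Slc12a5 (KCC2) fell, Slc12a4 (KCC1) rose by 1.17 (SE 0.15, limma adjusted p = 3.45e-06) in WT and by 1.34 (SE 0.15, limma adjusted p = 2.47e-06) in KO. Slc12a7 (KCC4) rose by 0.78 and 0.88 (limma adjusted p = 0.000391 and 0.000402). Slc12a2 (NKCC1), which imports chloride, was at 0.06 and 0.10, and Slc12a9 was at 0.11 in both, none of them called. In CPM per kb, Slc12a4 stood at 1.78 ± 0.269 in N_WT and 4.15 ± 0.571 in OGD_WT, beside Slc12a5 at 7.83 ± 0.596 and 4.78 ± 1.23 (n = 5 each). The ranges of the 2 transcripts were separate in N_WT and overlapped in OGD_WT. Of the WNK kinases and their partners, which set the activity of these cotransporters, 0 of 7 were called in WT and 1 of 7, Cab39l, was lower in KO (-0.54).

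**Figure D4:**
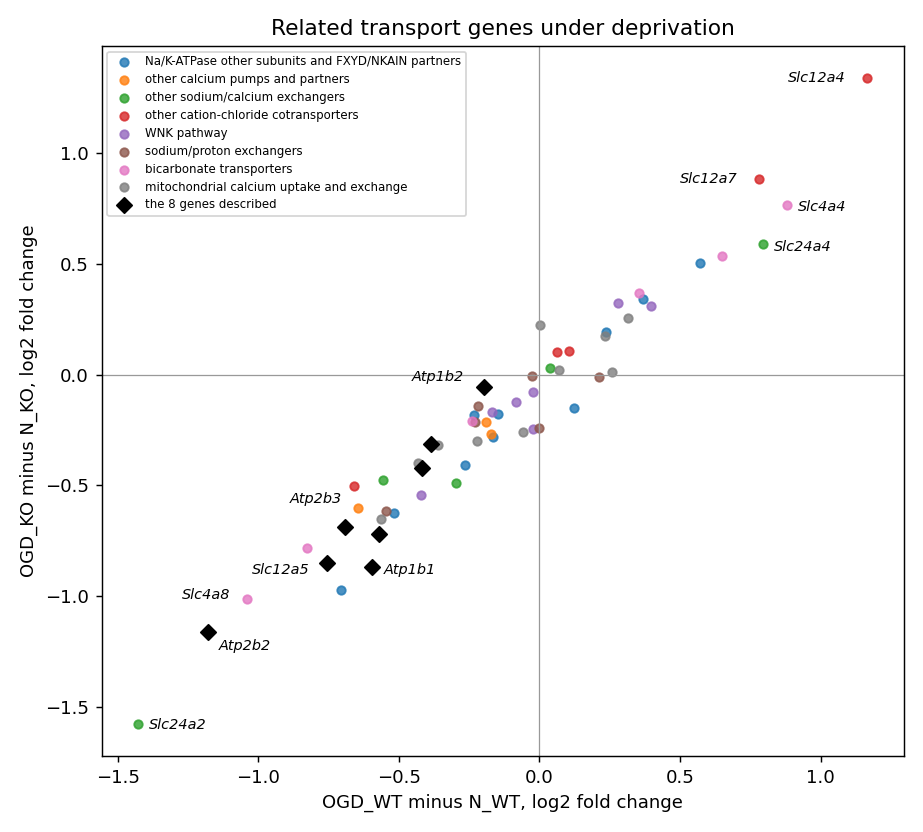
Log2 fold change of related transport genes under OGD in WT (horizontal) and KO (vertical), coloured by group, with the 8 genes described as black diamonds. The diamonds lie below 0 on both axes, and Slc12a4 and Slc12a7 lie at the upper right, opposite Slc12a5 and Atp2b2.

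Markers of cell types moved under OGD too. Of 14 neuron markers, 9 fell in each genotype and none rose, with a median log2 change of -0.57 in WT and -0.65 in KO, beside the median of the 8 genes of -0.58 and -0.70. Slc17a7, the vesicular glutamate transporter of cortical excitatory neurons, fell by 1.69 and 1.62. Of the GABA neuron markers, Gad2 fell by 0.52 and 0.62, and Gad1 was at 0.27 in both genotypes and not called. The summed level of the neuron list spanned 5014 to 6472 CPM in N_WT, 3243 to 6034 in OGD_WT, 5639 to 5926 in N_KO and 3353 to 4897 in OGD_KO. Of the 9 astrocyte markers measured, Slc1a3, Gja1, Sox9 and Aldoc rose in both genotypes by 0.68 to 1.08, Aldh1l1 rose in WT (0.60) and was at 0.57 in KO, not called, and Gfap fell in WT (-0.47) and was at -0.34 in KO, not called. Their sum spanned 1401 to 1838 CPM in N_WT, 2194 to 2822 in OGD_WT, 1383 to 1839 in N_KO and 1910 to 2619 in OGD_KO. Of 8 markers of proliferating progenitors, Mki67, Top2a, Ccnb1, Cdk1 and Sox2 rose in each genotype, with sums of 575 to 759 CPM in N_WT and 975 to 1567 in OGD_WT, and 548 to 851 in N_KO and 1141 to 1534 in OGD_KO. Oligodendrocyte lineage markers summed to 275 to 340 CPM in N_WT and 315 to 466 in OGD_WT, and to 205 to 385 in N_KO and 273 to 390 in OGD_KO. Of 10 microglia and 5 endothelial markers, 0 were among the genes common to all 4 tables. The part of these shifts, and of the mt-Rnr2 share, in the falls of the pump and exchanger transcripts was not tested. After each library was centred on its median, 6 of the 8 genes were called in each genotype, beside 6263 of 14235 genes in WT and 5940 of 14375 in KO.

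The 8 transcripts did not all vary together. Over the 20 libraries Pearson's r between pairs ran from 0.06 (Atp1b2 with Atp2a2) to 0.88 (Atp1b1 with Atp2b1). These values describe libraries that share the OGD contrast, depth and composition. After the group means were removed, r was highest for Atp1b2 with Atp2b2 (0.91) and next for Atp1b1 with Atp2b1 (0.77). Among the 7131 genes whose mean reached 4 log2 CPM, those most like Atp2b2 over the 20 libraries were Ulk2 (0.975), Rims4 (0.969) and Nagk (0.968). For Slc12a5 they were Cnrip1 (0.953), Btrc (0.952) and Pgbd5 (0.952), for Atp1b1 Prkar2a (0.962), Hs6st3 (0.958) and Cxadr (0.958), and for Atp2b1 Chl1 (0.966), Pak6 (0.963) and Map7d2 (0.960). Slc8a1 was nearest to Dda1 (0.943), Pclo (0.922) and Srgap1 (0.913), Slc8a2 to Fbxl16 (0.933), Syt7 (0.926) and Rbfox1 (0.916), and Atp2a2 to Cds2 (0.937), Optn (0.910) and Cert1 (0.904). Atp1b2 had the lowest likeness, with Eef1a2 (0.877), Spcs2 (0.829) and Pfkm (0.823), and had r of at least 0.8 with 8 genes, against 608 genes for Atp2b2.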

How the data were processed

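Libraries of DNase-treated total RNA were made with a stranded kit, per the labels' protocols, and the submitters' processing notes name mm10. The authors deposited 4 tables of log2 CPM, 1 per comparison, each with 10 libraries and 14152 to 14375 genes; aligner, counting, filter and scaling are not given in the sources used here. In each gene and group of 5 the deposited extremes sat where clipping at the 10th and 90th percentile puts them, which was inferred from the values. This was inverted (weights 0.6 and 0.4). Of the values up to 500 reads, 45.5% to 92.8% per library were whole reads as deposited (within 0.05 reads), and at least 99.9% afterwards. Each comparison was fitted within its table with limma 3.58.1 (R 4.3.3, lmFit and eBayes with trend, no block), with Benjamini-Hochberg adjustment over all its genes, two-sided, called under 0.05; the fit was tested on simulated data. The difference of genotypes used the change of each culture, 5 KO against 5 WT.

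The 8 genes, the related and marker lists and the tests were chosen with earlier results of these data known. Named related genes are the paralogues of the 8, of which some are not reported here, and, of the rest, the 2 largest rises and falls called in each OGD comparison; Fxyd7, Nkain3, Cab39l and single cell type markers were named after their values were seen. Normoxic and OGD libraries of a number are paired, since their genotype label (such as WT1) and batch are the same. Same-number libraries correlated in their deviations from the group means at r = -0.20, -0.02, -0.55, 0.08 and -0.22 in WT cultures 1 to 5 and at -0.09, -0.09, -0.74, -0.10 and -0.32 in KO. In both genotypes each OGD library correlated best with a normoxic library of another number. WT and KO share only a number. Levels per length used reads recovered from the tables, median-ratio size factors over 13688 genes and exon lengths from GENCODE vM21. Alternatives were the deposited values, other scalings, a pseudocount of 1 CPM, a filter at a mean log2 CPM of 1, voom on recovered reads, batch, block and each library left out.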

Additional observations from a re-analysis of the deposited data

Results flagged for a closer look

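In N_KO, Atp1b1 in replicate 4 was at 9.11 log2 CPM on the scale shared by all libraries, while the other 4 libraries lay between 8.46 and 8.61. Its gap to the nearest library was 0.769 of the group's range, above the 0.71 that marks a value far from the others in a group of 5. It was the 1 such value among 32 gene and group combinations, where chance alone marks about 1 in 20.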

How the results depend on the processing

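The 6 genes called under OGD kept their direction in all 234 of their alternative values and were called in 202. With replicates 2, 4 and 5 only, 2411 genes in all and 1 of the 8 were called in WT, and 2341 and 2 in KO. The lower number of libraries is part of that setting. Batch labels 3.1, 3.2 and 3.3 were joined as batch 3 wherever batch was used. Replicate 1 was batch 1 in both genotypes, while replicate 3 was batch 2 in KO and batch 3.2 in WT. In KO, batch 3 cultures were thus replicates 2, 4 and 5 (2341 and 2 again), and in WT replicates 2 to 5. That KO fit is counted under both settings in the numbers of alternatives given. Batch 3 cultures alone gave 4 of the 8 in WT (4916 genes). Leaving out 1 library gave 4 to 7 of the 8 in WT (5250 to 6635 genes) and 5 to 6 in KO (4908 to 5930 genes). With the replicate block 6 of the 8 were called in WT (5681 genes) and 5 in KO (4829 genes), where Slc8a1 was the 1 lost; it changed no other call of the 8. As deposited, 8280 genes and 7 of the 8 were called in WT and 8024 and 7 in KO.

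Between genotypes, the count over all genes moved from 5 in normoxia to 9 as deposited, 3 with the filter on low values, 2 with batch 3 cultures only, 3 with the replicate block and 29 with replicates 2, 4 and 5 only, and was 3 to 5 without single libraries. Under OGD it moved from 4 to 12 as deposited, 2 with the replicate block, 2 with batch as a covariate and 18 with replicates 2, 4 and 5 only, and was 1 to 7 without single libraries. The cause was not tested. WT and KO libraries of numbers 1 to 5 correlated in their deviations at r = -0.01, 0.11, 0.11, 0.12 and 0.21 in normoxia, where numbers 3, 4 and 5 correlated best with their own number, and at -0.16, 0.00, -0.24, 0.08 and 0.26 under OGD, where 4 and 5 did; the labels give them no shared culture, and the block changed no call of the 8 between genotypes. None of the 480 values of the 8 genes between genotypes or in the difference of changes was called, and 80 had the other sign. Low depth limits Slc8a2 most, at 85 reads in 1 library.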
